A study of Mus musculus with 6 samples.

Results

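The features described here are those of the Mir297, Mir466, Mir467 and Mir669 families, 4 groups of related mouse microRNA genes. They are the 91 of 65956 features on the array, control features aside, whose only annotated symbols start with one of those names. Members were selected on their symbols, and the values of the 6 arrays were used only to merge features that hold the same 6 values. That left 67 distinct profiles, 60 of 1 feature and 7 shared by 31 features, and each profile is counted once below. The families were taken up with earlier results of these arrays known, so their difference between groups is given as a description, beside the same measure over all features. Just outside the rule, 2 features that are also listed for another gene were left out.

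The cells came from mouse embryonic stem cells with the genotype iRunx, grown into embryoid bodies, aggregates in which early tissues form. At day 4, cells that carried Flk1 but not PDGFRα (PDFGRα in the labels), a fraction that holds precursors of blood and endothelium, were sorted. In the HOXB4 group they carried a retrovirus for the red marker tdTomato and for HOXB4, a homeobox transcription factor known for expanding blood stem cells, and in the control group they did not express it. Each group had 3 arrays, from experiments that the series text calls independent. All 6 samples thus share the iRunx genotype, the day and the sort. The sources used here do not say whether the control cells carried an empty vector or whether a Runx gene was induced, so the vector and HOXB4 cannot be told apart.

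MicroRNAs are cut from hairpins in longer transcripts, first by Drosha in the nucleus and then by Dicer in the cytoplasm, and guide Argonaute proteins to target RNAs through the seed, the bases near their 5′ end. Most genes of these families form a tandem cluster in an intron of Sfmbt2, a Polycomb group gene that is imprinted and read from the paternal copy in extraembryonic tissue. Their sequences are built from short UG and CA repeats, which occur at many places in the mouse genome. In the RefSeq gene table (GRCm38.p6) all 71 family genes on chromosome 2 lay inside Sfmbt2, and 10 lay on other chromosomes. The feature identifiers, which hold the chromosome, placed 71 features (47 profiles) on chromosome 2 and 20 features (20 profiles) on 15 other chromosomes. Of the 79 member symbols 78 were in that table, and the other, Mir4660, is listed beside Mir466o for 1 feature.

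Sequences from RefSeq (GRCm38.p6) were found for 8 family symbols with a member feature, all of genes off chromosome 2, and for Mir297-1 only the hairpin was there. The 7 mature sequences of members are shown because they show the repeats that the families share, with the seed (bases 2 to 8) in capitals.
mmu-miR-466k: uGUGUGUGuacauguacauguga
mmu-miR-466j: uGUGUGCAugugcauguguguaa
mmu-miR-466i-3p: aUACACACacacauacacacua
mmu-miR-467f: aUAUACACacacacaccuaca
mmu-miR-467g: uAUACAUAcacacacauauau
mmu-miR-467h: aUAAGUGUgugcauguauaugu
mmu-miR-669n: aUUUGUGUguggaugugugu
They lie at chr3:85467396-85467418 (plus strand) for miR-466k, chr10:60960802-60960824 (plus) for miR-466j, chr13:17747552-17747573 (plus) for miR-466i-3p and chr11:69635419-69635439 (minus) for miR-467f. The others lie at chr5:34732872-34732892 (minus) for miR-467g, chr9:115381898-115381919 (plus) for miR-467h and chr3:115979905-115979924 (plus) for miR-669n. With miR-466q (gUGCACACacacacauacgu, chr3:28419988-28420007, plus), whose feature the platform annotation spells Mir446q and which is therefore no member, 8 mature sequences had 8 distinct seeds. No seed was shared among the listed Mir466 sequences or among the listed Mir467 sequences. Mir669 had only miR-669n here and Mir297 had no mature sequence, so sharing within these families could not be read. None of the 8 comes from the Sfmbt2 cluster, so whether copies there share a seed was not tested. All 8 held UGUGUG (4) or ACACAC (4) somewhere in their length, against 31 of 1730 other mouse mature sequences (1.79%).

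The hairpin of Mir466k (chr3:85467377-85467498, plus strand) shows how far the repeat can extend. The runs in which UGUGUGUG matched are in capitals.
Mir466k hairpin: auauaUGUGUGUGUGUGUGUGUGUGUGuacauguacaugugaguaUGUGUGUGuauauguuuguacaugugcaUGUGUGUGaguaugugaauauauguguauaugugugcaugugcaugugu
Of its 122 bases, the dinucleotide UG was counted 37 times. UGUGUGUG, searched as written on the RNA strand, was in 3 of the 4 family hairpins in the table and in 7 of 1001 others (0.699%). The labelling kit primes whole transcripts, so whether a feature read a hairpin, its longer transcript, the mature microRNA or another RNA with the same repeat was not tested.

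In HOXB4 cells these features lay higher as a group. The median difference, HOXB4 minus control, was 0.33 on the log2 scale over the 67 profiles, with a range of -0.46 to 1.05, where the median over all features was -0.025. The difference was above 0 for 63 of the 67 profiles. In 27 profiles (40.3%) each of the 3 HOXB4 values exceeded each of the 3 control values, called free of overlap here, where 5.85% of all features did so. No member lay below in that way, where 8.53% of all features did.

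No single member passed the test. Limma's moderated test called 0 members and 0% of all 65956 features at a Benjamini-Hochberg adjusted p of 0.05, and the smallest adjusted p was 0.312 over the members and over all features. At an unadjusted p below 0.05 there were 30 members higher and 0 lower, where 3061 of all features (4.64%) were higher and 2917 lower. Leaving out control 1, the control array with the highest member values, raised the count of profiles without overlap from 27 to 47 (10.3% of all features in that setting).

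All 4 families lay on the same side. The 4 Mir297 profiles had a median difference of 0.40, with 2 free of overlap. The 26 Mir466 profiles had a median of 0.32 (11 free of overlap), the 11 Mir467 profiles 0.40 (5) and the 26 Mir669 profiles 0.30 (9). Of all features 5.85% were free of overlap. All 4 Mir297 and all 11 Mir467 profiles were above 0, as were 24 of 26 in each of the other families.

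**Figure D1:**
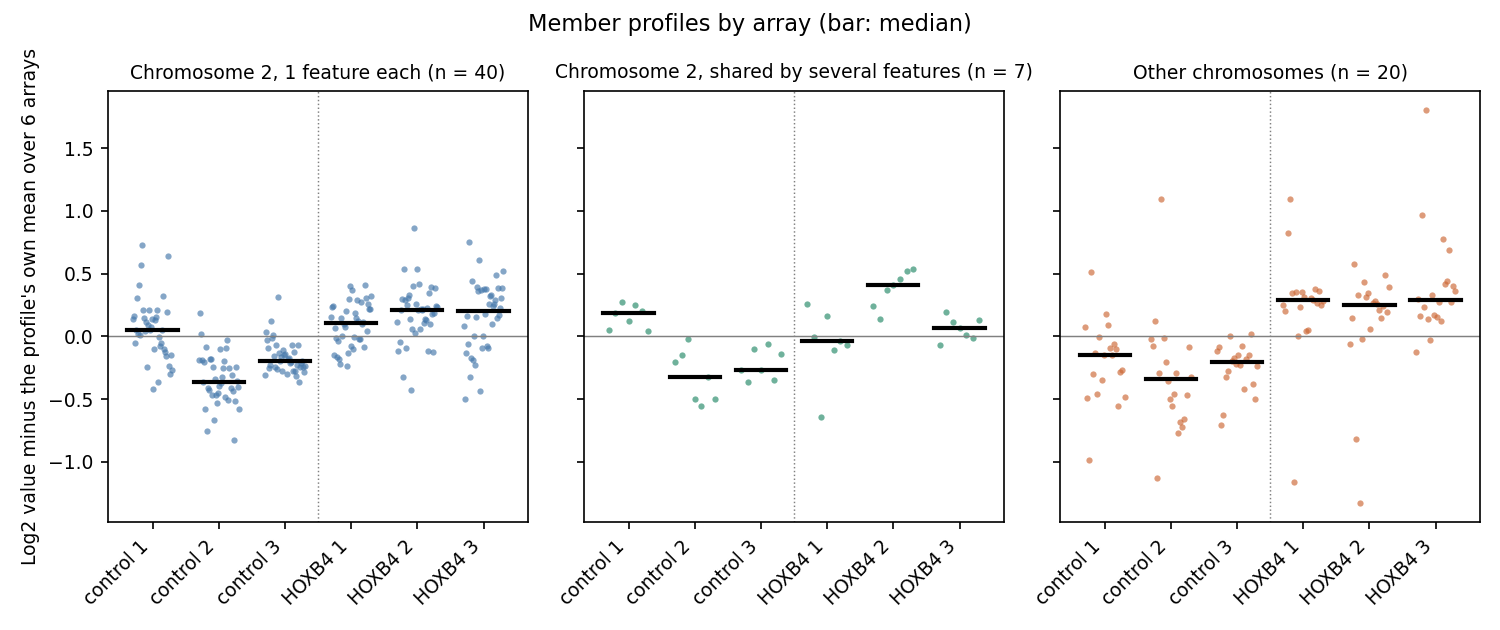
Log2 value of each member profile minus its own mean over the 6 arrays, by array, in 3 panels for chromosome 2 profiles of 1 feature (n = 40), chromosome 2 profiles shared by several features (n = 7) and profiles on other chromosomes (n = 20), with points for profiles and bars for medians. On other chromosomes the HOXB4 medians are 0.29, 0.25 and 0.29 and the control medians are all below 0, whereas on chromosome 2 control 1 lies above 0.

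The arrays did not contribute alike. Measured from each profile's own mean, the members' median was 0.041 in control 1, -0.36 in control 2 and -0.20 in control 3, and 0.15, 0.23 and 0.19 in HOXB4 1 to 3. Control 2 was thus the lowest array for 40 of 67 profiles and was the highest for none. Control 1 stood apart from the other controls: it was the highest of all 6 arrays for 6 profiles, all on chromosome 2. An example is the Mir466d feature outside the chromosome 2 run, at 9.96, 8.80 and 9.11 in controls and 9.36, 9.20 and 9.48 in HOXB4 cells. HOXB4 3 was highest for 24 profiles, HOXB4 2 for 21 and HOXB4 1 for 16. As median log2 values over the 67 profiles, the controls gave 7.07, 6.79 and 6.86 and the HOXB4 arrays 7.08, 7.39 and 7.29, so that HOXB4 1 and control 1 were nearly level by that measure.

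Chromosome 2 and the other chromosomes differed in how control 1 and HOXB4 1 compared. HOXB4 1 exceeded control 1 for 24 of the 47 profiles on chromosome 2 and for 18 of the 20 elsewhere. The median difference between groups was 0.28 on chromosome 2, with 44 of 47 above 0 and 14 (29.8%) free of overlap. On the other chromosomes it was 0.58, with 19 of 20 above 0 and 13 (65.0%) free of overlap. Of all features 5.85% were so. The difference between these sets of profiles was not tested, and the sets also differ in level: 13 of the 20 profiles elsewhere but 12 of the 47 on chromosome 2 had a mean of 8 or more.

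**Figure D2:**
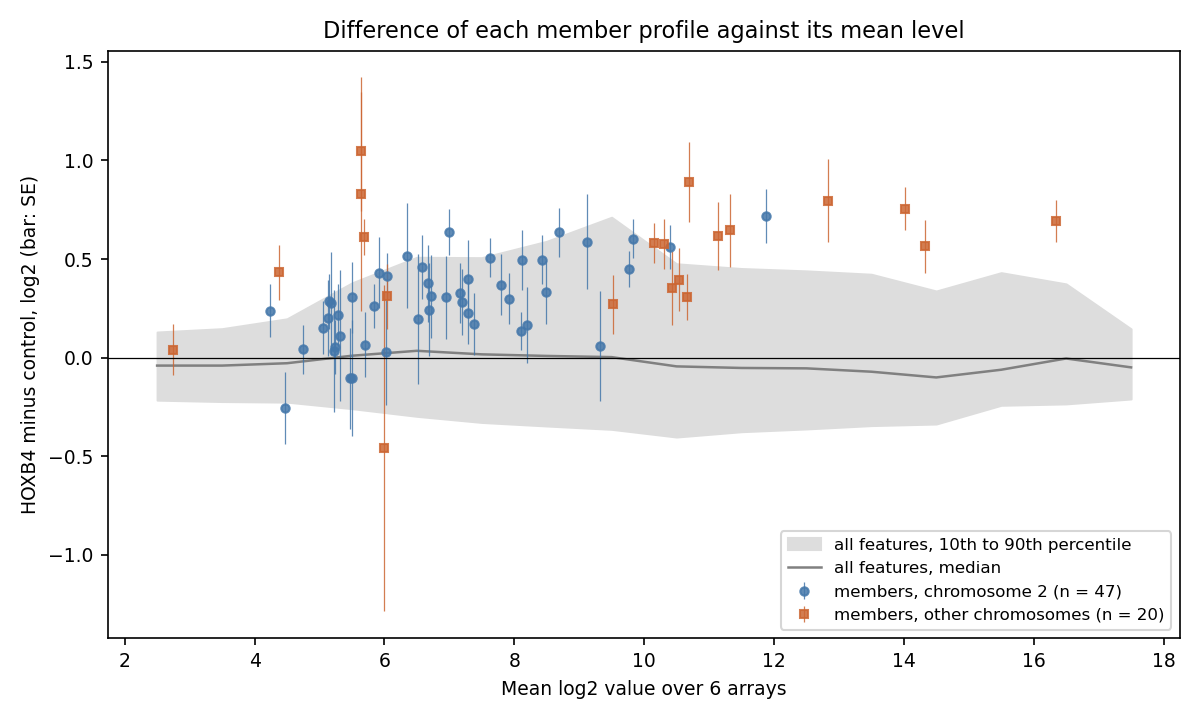
HOXB4 minus control difference (log2, bars are SE) of the 67 member profiles against their mean log2 value over the 6 arrays, circles for chromosome 2 and squares for other chromosomes. The grey band spans the 10th to 90th percentile of all features in steps of 1 log2 unit and the grey line is their median, near 0 throughout, while 63 of 67 members lie above 0. The upper edge of the band reaches 0.71 at a level of 9.5, and not every member above 0 lies above the band.

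Members with high values lay farther apart between groups. A log2 level depends on the probes of a feature, so levels sort features here and are not compared as amounts of RNA. Below a mean of 6 the 23 member profiles had a median difference of 0.20 and 4 were free of overlap (17.4%), where 4.55% of all features of that level were. Between 6 and 8 the 19 profiles had a median of 0.31 and 5 free of overlap (26.3%, against 8.05%). At 8 and above the 25 profiles had a median of 0.56, all 25 were above 0, and 18 (72.0%) had all HOXB4 values above all controls, against 9.47% of all features at that level.

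At that level features as a whole did not lean upward, with a median difference of -0.027, 45.9% above 0 and 14.1% with every HOXB4 value under every control. Unlike them, other microRNA features and features without a listed gene lay higher, though by less than the members. Of the 49 other microRNA features at 8 or above, 13 (26.5%) were free of overlap upward, with a median difference of 0.13. Over all levels the 585 other microRNA features had a median of -0.005 and 8.55% free of overlap upward. Features for which the annotation lists no gene gave 31.1% at 8 and above (2782 features, median 0.18). The members' share at that level, 72.0%, was higher than each of these, and within the band it was 66.7% on chromosome 2 (8 of 12) and 76.9% elsewhere (10 of 13). The part of this wider lean in the members' values was not tested.

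**Figure D3:**
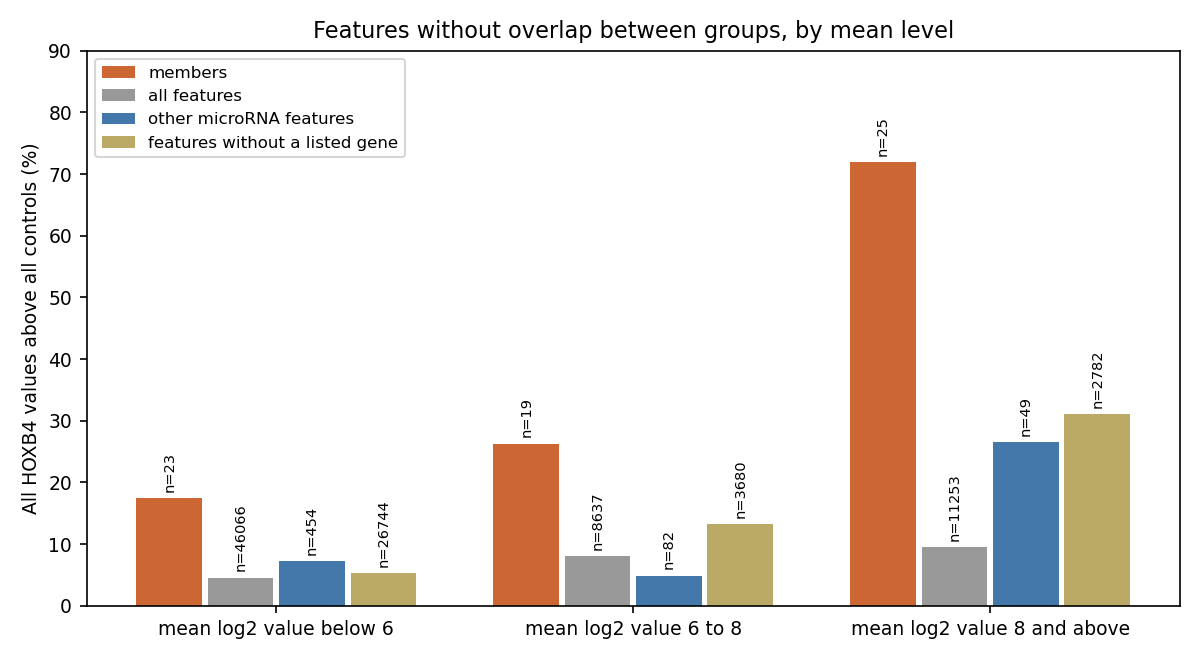
Share of features (%) with all 3 HOXB4 values above all 3 control values, in 3 bands of mean log2 value, for members, all features, other microRNA features and features without a listed gene, with the number of features above each bar. Members reach 17.4%, 26.3% and 72.0%, above the other sets in every band.

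The members with the highest values were free of overlap with one exception among the 3 brightest Mir466, Mir467 and Mir669 profiles each. The Mir669e feature on chromosome 8 read 15.86, 16.02 and 16.11 in the control arrays, in order of number, and 16.63, 16.73 and 16.71 in the HOXB4 arrays, the order kept below. The groups were apart by more than the range within either, and the difference was 0.69 (SE 0.11, limma adjusted p = 0.312). Mir669m-2 on chromosome X read 13.73, 13.54 and 13.63 in controls and 14.38, 14.51 and 14.29 in HOXB4 cells, a difference of 0.76 (SE 0.11, limma adjusted p = 0.312). Each control again lay below each HOXB4 array. Mir669h on chromosome 10 read 12.27, 12.17 and 12.85 against 13.09, 13.07 and 13.51, where control 3 came close to HOXB4 2, and differed by 0.80 (SE 0.21).

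Among the Mir467 profiles the feature on chromosome 18 listed for Mir467f was the brightest, at 14.05, 14.24 and 13.82 in controls and 14.57, 14.52 and 14.72 in HOXB4 cells, a difference of 0.56 (SE 0.13). The Mir467f feature on chromosome 11, where RefSeq places the gene inside Fxr2, read 10.57, 10.38 and 10.59 against 10.72, 10.95 and 10.79, a smaller difference of 0.31 (SE 0.12) that still left the groups apart. Mir467h on chromosome 9, whose sequence is shown above, was the exception. It read 10.63, 10.08 and 10.31 against 10.58, 10.81 and 10.81, so that control 1 lay above HOXB4 1, and it differed by 0.40 (SE 0.16).

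The brightest Mir466 profile was Mir466f-1 on chromosome 2, at 11.61, 11.29 and 11.63 in controls and 12.20, 12.11 and 12.39 in HOXB4 cells, a difference of 0.72 (SE 0.14). Mir466f-3 on chromosome 14 read 11.22, 10.61 and 11.18 against 11.70, 11.47 and 11.77 and differed by 0.65 (SE 0.18). In both, and in Mir466j on chromosome 10 (11.07, 10.45 and 10.95 against 11.43, 11.34 and 11.55, a difference of 0.62, SE 0.17), control 2 was the lowest array and HOXB4 3 the highest. The brightest Mir297 profiles lay at far lower values and gave a mixed picture. Mir297a-3 (7.79, 7.30 and 7.72 against 7.92, 7.90 and 8.12) differed by 0.37 (SE 0.15), or by 0.22 without control 2. Mir297c (6.63, 6.12 and 6.31 against 6.88, 6.61 and 6.96) differed by 0.46 (SE 0.16) and overlapped by the margin of control 1 over HOXB4 2. Mir297a-4 did not separate the groups at all, at 6.14, 5.55 and 6.34 in controls and 6.10, 5.59 and 6.42 in HOXB4 cells, and its difference of 0.028 (SE 0.27) turned to -0.20 without control 2.

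The smallest p-values, none of which passed after adjustment, were not limited to bright features. Mir466i on chromosome 13, in Cdk13 by RefSeq, read 5.38, 5.40 and 5.36 in controls and 6.03, 6.02 and 5.92 in HOXB4 cells. Its spread within groups was small against the difference of 0.61 (SE 0.09, limma adjusted p = 0.312). Mir466f-4 on the same chromosome read 9.80, 9.79 and 9.98 against 10.38, 10.46 and 10.47, a difference of 0.58 (SE 0.10, limma adjusted p = 0.344). On chromosome 2, Mir467c (9.52, 9.47 and 9.58 against 10.04, 10.21 and 10.13) differed by 0.60 (SE 0.10, limma adjusted p = 0.325). Mir466f-2 (6.58, 6.60 and 6.86 against 7.37, 7.21 and 7.37) differed by 0.64 (SE 0.12, limma adjusted p = 0.344). In these 4 features, on chromosomes 13 and 2, control 1 sat with the other controls, unlike in many features of the chromosome 2 cluster.

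Of the 67 profiles 4 had a difference below 0, and each of them had groups that overlapped. Mir669b on chromosome 3 had the widest range of all members, 3.13 log2 units: it read 5.87, 7.09 and 5.72 in controls and 4.84, 4.67 and 7.80 in HOXB4 cells. Its highest and lowest values both came from HOXB4 arrays, and the difference of -0.46 (SE 0.83) became 0.011 without HOXB4 1, 0.092 without HOXB4 2 and -1.47 without HOXB4 3. Mir466 on chromosome 2 (4.63, 4.65 and 4.51 against 4.70, 4.35 and 3.97) differed by -0.26 (SE 0.19), or by -0.068 without HOXB4 3. The profile shared by Mir466b-1 and Mir466b-4 to Mir466b-7 differed by -0.11 (SE 0.26) and Mir669i by -0.10 (SE 0.29). Both signs turned when 1 array was left out: the first was 0.19 without HOXB4 1 and 0.007 without control 1, and the second was 0.23 without control 1.

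The widest ranges among profiles above 0 were on other chromosomes. Mir467e on chromosome 1 read 4.66, 5.76 and 4.93 in controls and 6.46, 6.22 and 5.81 in HOXB4 cells, the largest difference of any member (1.05, SE 0.30, or 2.07-fold), with control 2 just under HOXB4 3. Mir466f-1 on chromosome 19 (10.54, 9.92 and 10.27 against 10.99, 10.95 and 11.46) differed by 0.89 (SE 0.20). On chromosome 17, a feature listed for Mir669a-1, Mir669a-4, Mir669a-12 and Mir669p-1 followed no group: it read 6.15, 4.51 and 5.01 against 6.73, 4.82 and 6.61. Its difference was 0.83 (SE 0.59), or 0.47 without control 2 and 1.45 without HOXB4 2, the array that sat among the controls.

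Of the 20 features off chromosome 2, 9 lay on the chromosome where RefSeq places the named gene, and 11 did not. The first 9 had a median difference of 0.43, with 6 free of overlap, where 5.85% of all features were so. They include the members whose sequences are printed above. Mir466k, with the long repeat in its hairpin, read 10.15, 9.80 and 10.08 in controls and 10.65, 10.64 and 10.47 in HOXB4 cells, and its difference of 0.58 (SE 0.13) left a clear gap between groups. Mir297-1 on chromosome 7, the member of its family off chromosome 2 and one without UGUGUGUG in its hairpin, read 3.89, 4.31 and 4.30 against 4.59, 4.53 and 4.68 (0.43, SE 0.14), also free of overlap although low. Mir467g on chromosome 5 (5.58, 6.03 and 6.05 against 6.40, 6.02 and 6.18) overlapped because HOXB4 2 lay within the control range. The other 11, whose names belong to genes on chromosome 2 or 11, had a median of 0.69, with 7 free of overlap. For those 11 the symbol and the identifier thus name different chromosomes.

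For 10 symbols a pair of profiles carried that symbol as its single name, most often 1 on the gene's own chromosome and 1 elsewhere, and these allow a comparison of differences under 1 name. Symbols that share a feature with others, such as Mir466o and those of the chromosome 17 feature, are not among them. Both profiles were above 0 for 9 of the 10 symbols. Mir466f-3 (0.56 on chromosome 2 and 0.65 on 14) and Mir466f-1 (0.72 on chromosome 2 and 0.89 on 19) differed between their places by less than the larger SE and were free of overlap in both. Mir669e was not alike in its places, with 0.15 (SE 0.13) on chromosome 2 and 0.69 (SE 0.11) on 8, and the chromosome 2 feature (5.10, 4.86 and 4.96 against 4.90, 5.26 and 5.21) had groups that overlapped. Mir669b had opposite signs, 0.49 (SE 0.15) on chromosome 2, at 8.17, 7.61 and 7.84 against 8.39, 8.34 and 8.36, and -0.46 on chromosome 3. The Mir466p profiles lay near 0 in both places (0.055 and 0.041), and the one on chromosome 18 was the only member not above the median of the array's background features in all 6 arrays.

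**Figure D4:**
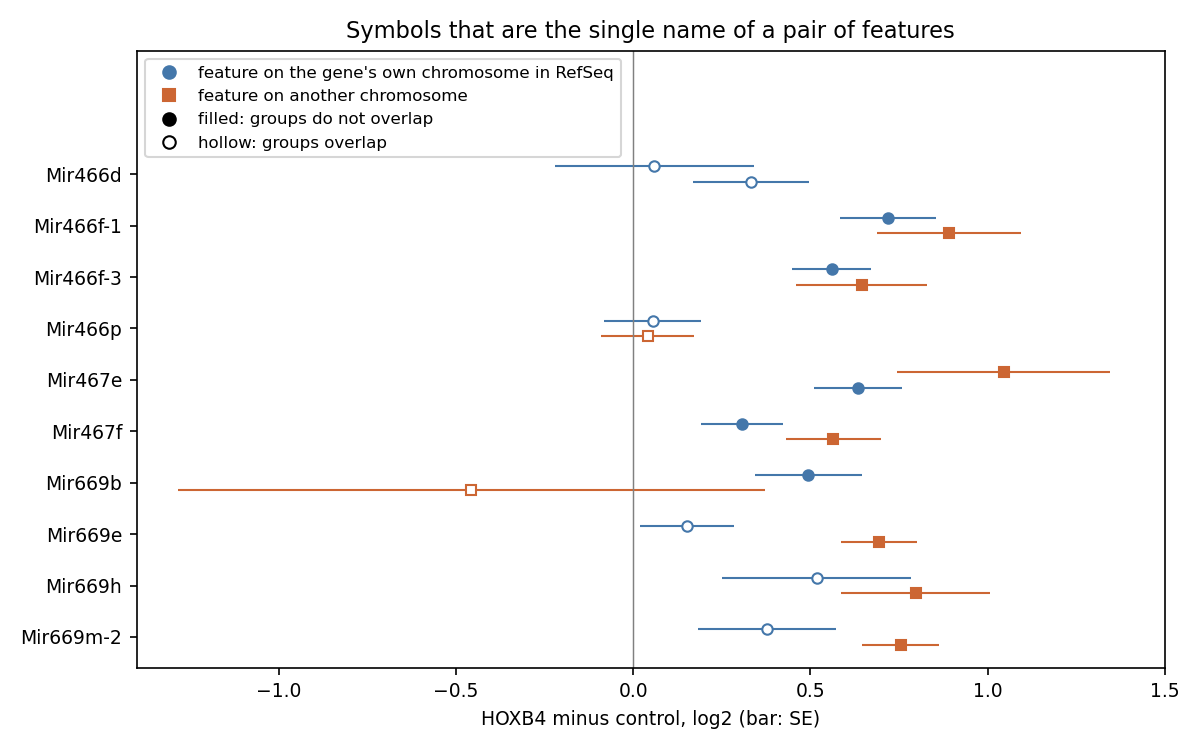
HOXB4 minus control difference (log2, bars are SE) of the 10 symbols that are the single name of a pair of member profiles, circles for a feature on the chromosome where RefSeq places the gene and squares for one on another chromosome, filled where the groups do not overlap. Apart from Mir669b on chromosome 3, at -0.46, every point lies above 0.

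On chromosome 2, 70 of the 71 features formed a run of neighbouring identifiers, and the other, a Mir466d feature, differed by 0.06 (SE 0.28). The run alternates Mir466, Mir467 and Mir669 units in its middle, where several copies share a profile. The first 12 features, from Mir466m to Mir467c, held no shared profile, and they had a median difference of 0.40 with 8 of 12 free of overlap. The middle 39 features, from Mir466b-1 to Mir669a-12, made 15 distinct profiles with a median of 0.26, and of these 1 (Mir669g, 0.26, SE 0.11) was free of overlap. The last 19, from Mir467e to Mir669h, had a median of 0.33 with 5 free of overlap. These 5 included Mir467e (0.64, SE 0.13), Mir669m-1 (0.51, SE 0.10) and Mir466h (0.45, SE 0.09), named after their values were seen. Over all features 5.85% were free of overlap upward. The stretches also differed in level, with mean values of up to 11.87 in the first, 7.29 in the middle and 9.77 in the last. The part of level in these counts was not tested.

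**Figure D5:**
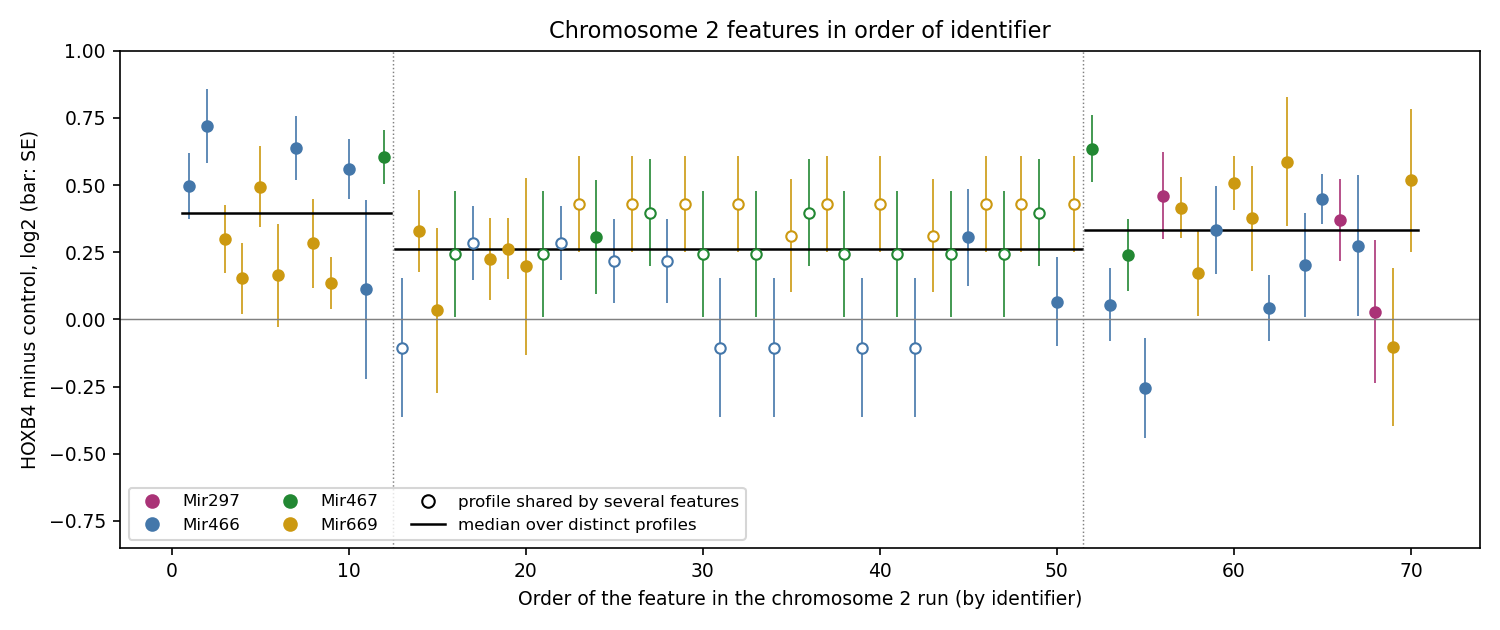
HOXB4 minus control difference (log2, bars are SE) of the 70 chromosome 2 features in order of identifier, coloured by family, hollow where several features share 1 profile, with dotted lines at the ends of the stretch that holds the shared profiles and black lines for the median over distinct profiles in each stretch. The medians are 0.40, 0.26 and 0.33, and the first stretch has no value below 0.

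In the middle stretch HOXB4 2 was most often the highest array, in 5 of the 7 shared profiles and in 7 of the 8 profiles of 1 feature. The largest shared profile held 9 features, Mir669a-4 to Mir669a-12, and read 6.04, 5.42 and 5.66 in controls and 6.09, 6.34 and 5.99 in HOXB4 cells, a difference of 0.43 (SE 0.18). The next held 8 features of Mir467a copies, at 6.93, 6.12 and 6.62 against 6.57, 7.14 and 6.69, a difference of 0.24 (SE 0.23). In both, HOXB4 2 was the highest array and control 1 lay above at least 1 HOXB4 array. The profile shared by Mir467a-3, Mir467a-6 and Mir467a-10 (7.33, 6.79 and 7.15 against 7.22, 7.83 and 7.42, a difference of 0.40, SE 0.20) and that of Mir669p-1 and Mir669p-2 (6.92, 6.40 and 6.37 against 6.68, 7.24 and 6.70, 0.31, SE 0.21) had the same array at the top. The profile of Mir466b-8 and Mir466e (0.28, SE 0.14) was highest in HOXB4 1, and that of Mir466c-1 and Mir466c-2 (0.22, SE 0.16) in HOXB4 3. Over the 7 profiles the median deviation from the own mean was 0.19 in control 1, -0.32 in control 2 and -0.27 in control 3, and -0.035, 0.41 and 0.07 in HOXB4 1 to 3. The 40 chromosome 2 profiles of 1 feature had the same arrays at the top (HOXB4 2, 0.21) and bottom (control 2, -0.36). Of the 7 shared profiles 0 were free of overlap, although their median difference (0.28) was close to the 0.29 of those 40. Of those 40, 14 were free of overlap, where 5.85% of all features were so. The shared profiles had mean levels of at most 7.29, where those 40 reached 11.87, and the part of level was not tested. The 7 profiles come from copies of a repeated unit, so they are not 7 independent readings.

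The host gene did not lie higher with the cluster. Sfmbt2 read 7.50, 6.63 and 7.26 in the control arrays and 6.81, 7.33 and 6.47 in the HOXB4 arrays, so control 1 was its highest array and HOXB4 2 its second highest. Its difference was -0.26 (SE 0.28), with groups that overlapped. The nearest measured protein-coding genes on its sides, Taf3, Kin, Itih2 and Itih5 and Prkcq, Pfkfb3, Rbm17 and Il2ra, also had differences below 0, from -0.23 to -0.044. The median over these genes with Sfmbt2 was -0.16, where 29284 of all 65956 features were above 0. Of the 9, 1 (11.1%), Taf3, had all HOXB4 values below all controls, near the 8.53% of all features.

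Away from chromosome 2, 6 of the 10 family genes in RefSeq lay inside another gene, 5 of them inside a protein-coding one, and these hosts were looked up after the values were seen. Cdk13, a kinase of transcription elongation that encloses Mir466i, read 13.12, 13.10 and 13.14 in controls and 13.12, 13.10 and 13.07 in HOXB4 cells, a difference of -0.023 (SE 0.09) beside the 0.61 of Mir466i. Slc30a7, a zinc transporter gene that encloses Mir669n, differed by -0.20 (SE 0.11), with every HOXB4 value under every control, and Mir669n by 0.27 (SE 0.15), at 9.52, 9.32 and 9.33 against 9.52, 9.96 and 9.49. Grk4, a receptor kinase gene that encloses Mir467g, differed by -0.10 (SE 0.09), also with every HOXB4 value under every control, and Mir467g by 0.31 (SE 0.17). Of all features 8.53% lay wholly below in that way. Fxr2, a relative of the fragile X protein gene, differed by 0.10 (SE 0.10) beside the 0.31 of Mir467f. Tnik, a kinase gene that encloses Mir466q, differed by 0.78 (SE 0.37), the same side as the 0.31 of the Mir466q feature. Of these 5 hosts 3 were below 0, as were 36672 of all 65956 features, and the RefSeq gene table used gives no strand.

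Features of other microRNAs with the same repeats were looked at because the repeat is what the family sequences share. Of 822 features outside these families with a mature sequence in RefSeq, matched by updated symbol, 17 had UGUGUG or ACACAC in it. Their median difference was 0.19, 13 of 17 were above 0, and 5 (29.4%) were free of overlap upward. The 805 with neither repeat had a median of -0.013 and 49 (6.09%) free of overlap upward. Mir574 and Mir1187 are printed as examples, with the seed in capitals, and were chosen after their values were seen.
mmu-miR-574-5p: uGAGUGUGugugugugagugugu
mmu-miR-1187: uAUGUGUGuguguauguguguaa
Mir574 (chr5:64970328-64970350, plus) read 7.89, 7.80 and 7.76 in controls and 7.96, 8.27 and 8.53 in HOXB4 cells, and differed by 0.44 (SE 0.15) without overlap. Mir1187 (chr5:82798964-82798986, minus) read 4.47, 5.11 and 4.73 against 5.36, 5.14 and 4.98, so that control 2 reached into the HOXB4 range, and differed by 0.39 (SE 0.18). Mir466q, which the platform spells Mir446q, read 8.27, 7.87 and 7.88 against 8.38, 8.24 and 8.34 and differed by 0.31 (SE 0.14). Not all bright features with the repeat lay higher: Mir703, whose hairpin holds UGUGUGUG, stood at 18.67, 18.60 and 18.31 against 18.35, 18.41 and 18.47 (-0.12, SE 0.12). The 17 features were too few, and too low in level at 2.86 to 8.04, to be set beside the brightest members.

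Other microRNA clusters known from early embryonic cells did not lie higher. The 3 measured features of Mir290 to Mir295, a cluster of pluripotent cells, had a median difference of -0.012. The 5 of Mir302 and Mir367 had a median of -0.13, with 1 above 0 and a range of -0.45 to 0.10. Neither set had a feature free of overlap. Both sets were low in level, at 3.74 to 5.48 and 3.52 to 6.39, and members of low level also differed less between groups. They can therefore not be set beside the brightest members.

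As a whole list, genes that make and carry microRNAs did not lie to one side. Of 32 listed, 29 had a feature of their own, with a median difference of 0.004 and 16 above 0. Limma called 0 of them. In 1 (3.45%) all HOXB4 values lay above all controls, where 5.85% of all features did so. In 4 (13.8%) they lay below, where 8.53% of all features did. These 4 were Drosha, Xpo5, Ran (-0.09, SE 0.095) and Tarbp2 (-0.20, SE 0.11). On the processing side Drosha, which cuts the primary transcript, read 13.93, 13.64 and 13.43 in controls and 13.33, 13.38 and 13.39 in HOXB4 cells (-0.30, SE 0.14). Xpo5, which exports the hairpin, read 12.06 in each control and 11.53, 11.93 and 11.56 in HOXB4 cells (-0.39, SE 0.13). In both, all HOXB4 values lay below every control, while Dicer1 (-0.23, SE 0.14) overlapped. Among effectors and modifiers, Ago1, an Argonaute, differed by 0.60 (SE 0.23) with HOXB4 2 inside the control range. Tnrc6a, its silencing partner, differed by 0.25 (SE 0.16), Tent2, a polymerase that adds 3′ tails, by 0.21 (SE 0.10) without overlap, and Tsn, a subunit of an RNase that degrades small RNA strands, by -0.38 (SE 0.14).

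Markers of the cell types the sort could hold were read in the same arrays. Kdr, the gene of Flk1, was between 13.68 and 14.33 in all 6 arrays, while no feature named Pdgfra alone. Of 6 pluripotency genes all 6 had differences above 0 (median 0.49), with array medians of 7.41, 6.97 and 8.10 in controls and 7.25, 7.91 and 8.07 in HOXB4 cells, which overlapped. Of 8 trophoblast genes, markers of a lineage in which Sfmbt2 is active, 3 were above 0 (median -0.34), with array medians of 8.84, 7.76 and 8.05 against 7.04, 8.33 and 8.09. Of 7 endothelial genes 6 were above 0 (median 0.48). The array medians over the 7 were 9.49, 10.86 and 9.27 in controls and 11.75, 8.96 and 10.71 in HOXB4 cells. HOXB4 2 thus lay below every control, and control 2 lay above HOXB4 3. Etv2, the endothelial gene below 0, had the largest difference of the 7, -1.53 (SE 0.58), with groups that overlapped. Of 6 cardiac genes 5 were below 0 (median -0.79). Hand1 among them, at -3.22 (SE 1.03) with groups that overlapped, had the lowest difference of all features. Hand2 (-1.205, SE 0.30) and Tbx20 (-1.89, SE 0.46) had all HOXB4 values below all controls. They were 33.3% of the list, where 8.53% of all features lay so. Cdx2 (-1.71, SE 0.47) of the trophoblast list and Ttr (-0.11, SE 0.098) of the endoderm list also lay wholly below. Zfp42 (0.69, SE 0.23) of the pluripotency list lay wholly above, where 5.85% of all features did. In the endothelial, blood and paraxial mesoderm lists every gene had groups that overlapped. The 7 blood genes had a median of -0.058 (3 above 0). Paraxial mesoderm genes gave -0.10 (1 of 4 above 0) and endoderm genes -0.018 (3 of 6). The part of a change in cell types in the members' difference was not tested, and in these mixed samples more cells of a type and more RNA per cell cannot be told apart. The arrays themselves had medians of 4.59 to 4.71 over all features and 3.06 to 3.15 over 23 background features.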

How the data were processed

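RNA from 6 samples was hybridised to 1 array each, after labelling of 100 ng with a whole-transcript kit, per the labels' protocols. The deposited values are log2 summaries made by the authors with Affymetrix Expression Console and RMA, per the submitters' processing notes; the sources used here give no version, genome build or annotation. RMA by design equalises the arrays. The number of arrays limits the precision.

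Features were named from the platform annotation, with symbols updated through RefSeq (GRCm38.p6), and a gene is its brightest single-gene feature. HOXB4 minus control was fitted over all 65956 features with limma 3.58.1 in R 4.3.3 (two-sided, Benjamini-Hochberg threshold 0.05), without a replicate block; SE is moderated. The fit was tested on simulated data. Same-numbered arrays did not deviate together (correlations -0.29, -0.46 and -0.27, and -0.035 to 0.31 between different numbers). With 3 arrays per group these values cannot settle whether equal numbers mark the same experiment, so pairing is unknown. Tables were made with pandas 2.3.3 and numpy 2.4.6 in Python 3.11.15, and plots with matplotlib 3.10.9.

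The rule named Sfmbt2 with 4 neighbours per side, the 3 brightest profiles per family, 6 per direction with the smallest p, the 4 with the widest range, and 3 pathway genes per direction; members were also named for a shared symbol or a sequence. Members and lists were chosen with earlier results of these data known. The alternatives were a replicate block, other scalings, priors, weights and filters, merged profiles, single-symbol members, each array left out, and a fit without moderation added after the data were seen. The p-values measure the spread between these arrays.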

Additional observations from a re-analysis of the deposited data

How the results depend on the processing

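The members' median difference stayed above 0 in every alternative run, from 0.25 to 0.43 with 1 array left out, and 0 members were called in any. Over all features the calls ranged from 0 to 40 with 1 array left out (40 without HOXB4 2), and the fit without moderation, added later, called 1. Profiles without overlap numbered 27 to 47 with 1 array left out (47 without control 1), where 8.82% to 11.8% of all features were so, 35 with array medians centred (5.94%) and 31 with cyclic loess (7.14%). Without HOXB4 1, and without HOXB4 3, 1 profile lay wholly below the controls. With the replicate block 0 members and 0 features were called, with a smallest limma adjusted p of 0.756, and 26 members were at an unadjusted p below 0.05. Means over profiles in place of medians gave 7.65, 7.32 and 7.46 for the control arrays and 7.78, 7.84 and 7.88 for the HOXB4 arrays, which ordered all HOXB4 arrays above all controls. Of 299 alternative values of the 23 named members, 8 turned in sign, all with 1 array left out: Mir466b-1 (-0.316 to 0.19, above 0 without control 1 or HOXB4 1), Mir297a-4 (-0.20 to 0.25, below 0 without control 2, HOXB4 1 or HOXB4 3), Mir669i (-0.335 to 0.235, above 0 without control 1) and Mir669b on chromosome 3 (-1.473 to 0.092, above 0 without HOXB4 1 or HOXB4 2). The cause of these turns was not tested. The filter on dim features removed 1 member, Mir466p on chromosome 18.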
